A study of Mus musculus with 6 samples.

Results

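The genes of sterol and fatty acid synthesis were followed in mouse skin scars of 2 kinds. A list of 33 members was given by name: enzymes of the mevalonate and cholesterol route, the regulators around the sterol regulatory element-binding proteins (SREBPs), and enzymes that build, elongate or desaturate fatty acids. Of these, 31 were found by gene name and Msmo1 by its gene identifier (it is listed under its older symbol, Sc4mol), and Mvd was not analysed here. The 32 analysed members are part of 17572 genes in the count table, and all 32 were among the 14513 genes that passed the filter on low counts. RNA sequencing of total RNA depleted of ribosomal RNA compared hypertrophic scars (HS, n = 3) with normal scars (NS, n = 3), to profile gene expression across the genome. All mice were C57BL/6 with the genotype given as WT, and all scars were taken in week 2 after the operation. In HS the wound lay on the upper back and its stretched edges were fixed to the rib cage under tension. In NS the wound lay on the lower back and was closed in place without tension. Tension and body position therefore change together, and their effects cannot be told apart. The age and sex of the mice, and whether each library came from a separate animal, are not stated in the labels. The p-values therefore measure only how these 6 libraries vary, which may be partly technical. Summed counts ran from 20375395 to 27859889 per library. Levels are CPM, counts scaled to a common library size. Fold changes (HS over NS, on the log2 scale) and p-values come from the quasi-likelihood test of edgeR, adjusted by Benjamini and Hochberg's method over all 14513 genes, with a threshold of 0.05. A gene that passed this threshold is said to have been called.

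Cholesterol is made from acetyl-CoA. Acetyl-CoA is condensed to mevalonate, mevalonate is turned into isoprenoid units, these are joined to squalene, squalene is closed into the ring of lanosterol, and lanosterol is trimmed and reduced to cholesterol. Fatty acids share the same precursor and are extended by fatty acid synthase, then elongated and desaturated in the endoplasmic reticulum. When membrane sterol is low, SCAP escorts the SREBPs from the endoplasmic reticulum to the Golgi, where proteases free the part that enters the nucleus and activates the genes of both routes; INSIG proteins hold SCAP back when sterol is plentiful. In skin, sebaceous glands and the epidermis are known sites of lipid synthesis, since sebum and the barrier of the outer epidermis are made of these lipids.

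The region before the start of 4 members is shown, because these genes stand at separate points of the pathway: Hmgcs1 and Mvk in the mevalonate steps, Lss at the closure of the sterol ring, and Insig1 in the regulation of the SREBPs. Each is the RefSeq window of the build GRCm38.p6 from 250 bases before to 50 bases after an annotated start, 300 bases in all, read on the plus strand: chr13:119690101-119690400 for Hmgcs1, chr5:114444019-114444318 for Mvk, chr10:76531355-76531654 for Lss and chr5:28071162-28071461 for Insig1. Capitals mark the letters TCACNCCAC of a sterol regulatory element, CCAAT and CACGTG (the E-box letters), searched on both strands, so that CCAAT on the minus strand reads ATTGG. No 2 marked stretches overlap in these 4 windows.
Hmgcs1: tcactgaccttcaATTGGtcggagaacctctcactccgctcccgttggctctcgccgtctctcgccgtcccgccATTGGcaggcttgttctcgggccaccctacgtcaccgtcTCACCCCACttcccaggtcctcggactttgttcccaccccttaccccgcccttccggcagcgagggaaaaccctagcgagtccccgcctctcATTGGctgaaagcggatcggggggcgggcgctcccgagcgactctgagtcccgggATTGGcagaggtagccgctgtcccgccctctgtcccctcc
Mvk: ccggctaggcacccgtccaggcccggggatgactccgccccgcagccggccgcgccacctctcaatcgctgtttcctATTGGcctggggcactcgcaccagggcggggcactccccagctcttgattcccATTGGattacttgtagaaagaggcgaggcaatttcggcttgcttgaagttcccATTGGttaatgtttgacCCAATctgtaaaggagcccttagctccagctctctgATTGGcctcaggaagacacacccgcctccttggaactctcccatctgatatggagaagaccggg
Lss: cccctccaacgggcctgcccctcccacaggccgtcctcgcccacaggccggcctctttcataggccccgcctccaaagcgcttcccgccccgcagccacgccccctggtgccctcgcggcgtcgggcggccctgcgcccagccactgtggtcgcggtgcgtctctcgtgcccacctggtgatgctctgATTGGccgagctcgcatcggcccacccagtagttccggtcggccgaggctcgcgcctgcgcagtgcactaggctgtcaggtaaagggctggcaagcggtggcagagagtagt
Insig1: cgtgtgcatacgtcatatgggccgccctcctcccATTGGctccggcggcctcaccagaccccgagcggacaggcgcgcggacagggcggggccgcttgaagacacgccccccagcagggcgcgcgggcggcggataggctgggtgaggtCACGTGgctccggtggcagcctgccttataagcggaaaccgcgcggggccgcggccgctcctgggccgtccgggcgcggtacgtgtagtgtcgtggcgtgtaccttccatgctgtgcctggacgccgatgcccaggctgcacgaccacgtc
Hmgcs1 holds the sterol regulatory element letters once, at -137 to -129 from the start, and CCAAT 4 times. Mvk holds CCAAT 5 times, Lss once at -62 to -58, and Insig1 once at -216 to -212. Insig1 also holds a CACGTG at -101 to -96. Windows were matched for 26 of the 32 members (35 windows, since some genes have several starts), and Fdps, Fdft1, Sqle, Stard4, Fads1 and Scd2 had none. CCAAT was present in 22 of the 35 windows (62.9%), beside 37.4% of all 32851 windows of this length in the table. CACGTG was present in 7 of the 35 (20.0%), beside 7.15% of all windows. The sterol regulatory element letters were present in 1 of the 35 (2.86%), that of Hmgcs1, beside 1.24% of all windows. Windows of the same gene can overlap, as those of Scap do. Counted by gene, CCAAT was present in 21 of the 26, CACGTG in 6 and the sterol regulatory element letters in 1. The shares of all genes with a window were 41.1%, 8.09% and 1.44%. These are matches of letters in a fixed window, and no difference between the shares was tested.

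Of the 32 members, 11 fell in HS with libraries scaled by TMM (edgeR's usual factors), 1 when scaled to basal keratinocyte markers and 0 when scaled to inner root sheath and hair shaft markers. The 11 called lower are Acat2, Mvk, Fdps, Lss, Hsd17b7, Dhcr7, Srebf1, Srebf2, Insig1, Insig2 and Fads2, beside 2.51% of all genes tested called lower (8.85% were called in either direction). The members were chosen with earlier results of these data known, so the shares set beside all genes here describe the list and are no independent support. No member was called higher, where 6.33% of all genes were, and no member had an unadjusted p below 0.05 in that direction; DESeq2 and limma-voom called 0 higher as well. In 21 of the 32 members every HS library lay below every NS library, an order found in 15.2% of all genes tested. The fitted log2 fold change was below 0 in 31 members (Acaca was at 0.02), in 28 with the basal keratinocyte scaling and in 18 with the inner root sheath and hair shaft scaling. Both scalings were chosen after seeing the data, and their marker lists themselves had medians of -0.26 and -0.50 under TMM. They shift every gene alike and moved the median of all genes tested from -0.01 to 0.20 and 0.43. Such an upward shift lowers the number of falls by construction, so the changes in these counts are not particular to the members. With TMM the median of the members was -0.43. The falls were modest: the largest called one, Lss, was -0.72, and the smallest, Insig2, was -0.36.

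**Figure D1:**
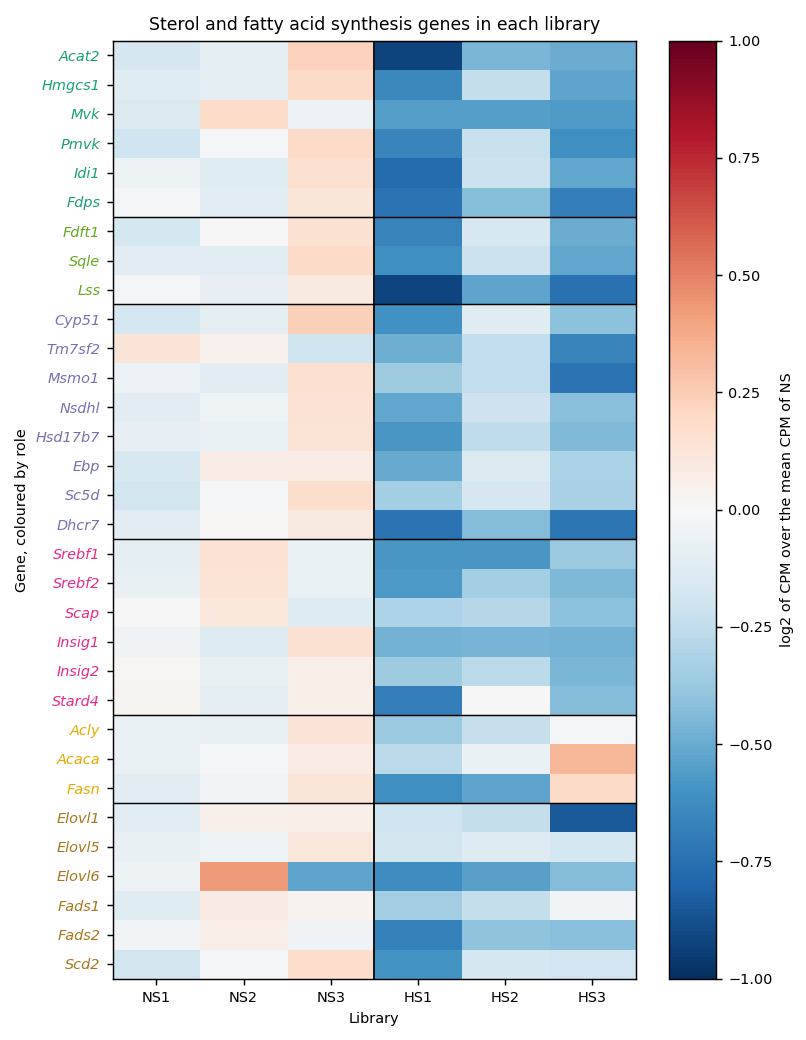
Level of each of the 32 members in each library, as log2 of its CPM over the mean CPM of the NS libraries (red above 0, blue below 0), with genes grouped and coloured by role and the groups divided by a vertical line. The HS columns are mostly blue under this scaling, HS2 is the palest of them for the sterol enzymes, and HS3 turns red for Acaca and Fasn; with scaling to inner root sheath and hair shaft markers, which moved the median of all genes tested to 0.43, the fitted change was below 0 in 18 of the 32 members.

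The calls rested on all 3 NS libraries and on HS3. Without NS1, NS2 or NS3 no member was called lower, the smallest adjusted p being 0.058, 0.0671 and 0.0659, although 24, 19 and 17 members still had an unadjusted p below 0.05. Without HS3 the only member called was Lss. Without HS1 the count was 9, since Hsd17b7 and Fads2 were lost, and without HS2 it was 22. The median log2 fold change of the members stayed between -0.51 and -0.36 in these 6 fits. Over the whole table the same fits called between 25 and 3257 genes.

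**Figure D2:**
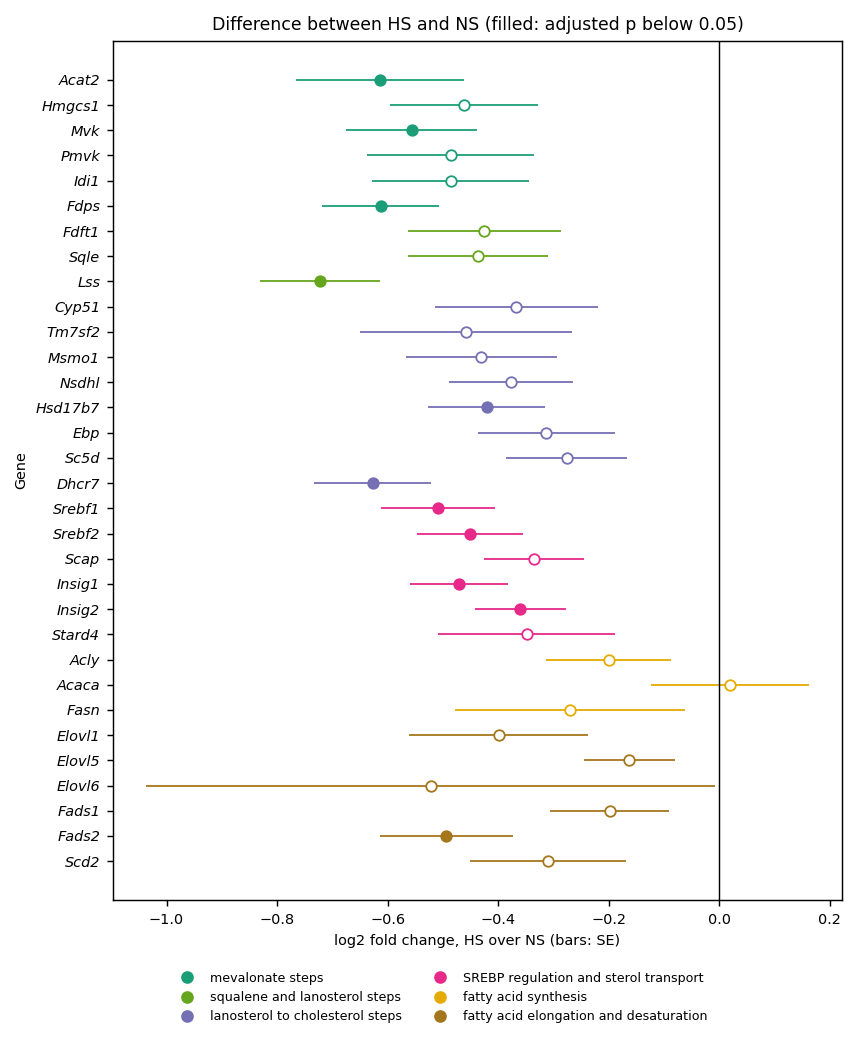
Fitted log2 fold change of each member, HS over NS (points, with bars for the standard error), in order of role from the mevalonate steps at the top; filled points are the 11 members with an adjusted p below 0.05. All points but that of Acaca lie below 0 with libraries scaled by TMM, and 18 of the 32 lie below 0 with scaling to inner root sheath and hair shaft markers, which moved the median of all genes tested to 0.43.

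In the mevalonate steps, 3 of the 6 analysed members were called lower, and in all 6 the HS libraries lay below the NS libraries. Over all genes tested, 2.51% were called lower and 15.2% had that order. Acat2 condenses 2 acetyl-CoA in the cytosol (chr17:12942890-12960747). It was measured at 44.8, 62.2 and 60.3 CPM in HS1 to HS3 and 76.0, 79.6 and 100.2 CPM in NS1 to NS3. The fold change was -0.61 (SE 0.15, edgeR adjusted p = 0.0422), and the lowest HS library, HS1, was well below the other two. Acat2 has a close paralog, Acat3, with which reads may be split; Acat3 itself was at 1.18 to 1.54 CPM in every library. Mvk, mevalonate kinase (chr5:114444269-114460591), was at 28.9, 28.8 and 28.5 CPM in HS1 to HS3 and 38.2, 47.9 and 40.7 CPM in NS1 to NS3. Its 3 HS values were nearly the same, at a mean of 28.7 ± 0.225 CPM against 42.3 ± 5.06 in NS (SD, n = 3 each), and the fold change was -0.56 (SE 0.12, edgeR adjusted p = 0.0263). At 647 to 778 counts in the HS libraries, that HS SD is below the noise of counting and says little of constancy. Fdps, which makes farnesyl diphosphate (chr3:89093588-89101959), was at 93.3, 116 and 96.9 CPM in HS1 to HS3 and 154, 144 and 169.9 CPM in NS1 to NS3. That is a fold change of -0.61 (SE 0.11, edgeR adjusted p = 0.0154), with a gap between the highest HS library, HS2, and the lowest NS library, NS2. Exons of Fdps share 1124 bases with the predicted gene Gm43738 on the same strand, so the count can include reads of that gene. None of these 3 was called without HS3 or without any 1 NS library.

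Hmgcs1, HMG-CoA synthase and a standard target of the SREBPs, did not pass the test. It was at 625, 829 and 679.7 CPM in HS1 to HS3 and 899, 920.0 and 1119 CPM in NS1 to NS3, and the fold change was -0.46 (SE 0.13, edgeR adjusted p = 0.0647). The groups did not overlap, and HS2 was the HS library nearest to NS. Pmvk, phosphomevalonate kinase, had -0.49 (edgeR adjusted p = 0.0772), and Idi1, the isopentenyl diphosphate isomerase, had -0.49 (edgeR adjusted p = 0.0692). In both, HS2 was the highest HS library, at 41.6 CPM for Pmvk and 117 CPM for Idi1, just below the lowest NS values of 42.3 and 124 CPM.

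The 3 enzymes from farnesyl diphosphate to lanosterol differed in how far the groups stood apart. Lss, lanosterol synthase (chr10:76531588-76557138), was at 79.6, 104 and 89.2 CPM in HS1 to HS3 and 149, 142 and 159.8 CPM in NS1 to NS3. The HS mean was 91.0 ± 12.4 CPM and the NS mean 150.1 ± 9.09 CPM (SD, n = 3 each), a fold change of -0.72 (SE 0.11, edgeR adjusted p = 0.0109). The groups were separated by a wide gap, between 104 CPM in HS2 and 142 CPM in NS2. Exons of Lss share 381 bases with an antisense gene, 4930483K19Rik, whose reads may be counted with it if strand was not kept. Lss was the member that kept its call without HS3 (adjusted p = 0.0487) and with scaling to basal keratinocyte markers, and lost it without NS1, NS2 or NS3. Sqle, squalene epoxidase, was at 187, 247 and 199.8 CPM in HS1 to HS3 and 266, 266 and 326 CPM in NS1 to NS3. It had a fold change of -0.44 (SE 0.13, edgeR adjusted p = 0.0636), with HS2 again nearest to NS. Fdft1, squalene synthase, had -0.43 (edgeR adjusted p = 0.0903), and here HS2 at 147 CPM lay above NS1 at 146 CPM. Exons of Fdft1 share 774 bases with Ctsb on the opposite strand, whose reads may be counted with it if strand was not kept.

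Among the 8 enzymes that turn lanosterol into cholesterol, 2 were called lower, beside 2.51% of all genes tested. In 5 every HS library lay below every NS library, beside 15.2% of all genes tested. Dhcr7, a reductase of the last steps (chr7:143823145-143848410), was at 64.0, 78.9 and 64.6 CPM in HS1 to HS3 and 99.2, 108 and 113 CPM in NS1 to NS3. Its fold change was -0.63 (SE 0.11, edgeR adjusted p = 0.0143), and HS1 and HS3 were almost equal, both below HS2. Hsd17b7, a sterol ketoreductase (chr1:169949535-169969241), was at 86.8, 109 and 95.8 CPM in HS1 to HS3 and 123, 124 and 143 CPM in NS1 to NS3. The fold change was -0.42 (SE 0.11, edgeR adjusted p = 0.0423), and NS3 stood above the other two NS libraries. Neither was called without HS3 or without any 1 NS library. The other 6 had fold changes between -0.46 (Tm7sf2, a sterol reductase) and -0.28 (Sc5d, the lathosterol desaturase) and none passed the test. For Msmo1, a sterol methyl oxidase, and Nsdhl, which works with it in removing the methyl groups of lanosterol, the groups were apart and the adjusted p-values in edgeR were 0.0827 and 0.0675. For Cyp51, the lanosterol demethylase, Ebp, the sterol isomerase, and Sc5d the groups overlapped, each time because HS2 lay above NS1. With scaling to inner root sheath and hair shaft markers, Cyp51, Nsdhl, Ebp and Sc5d were fitted above 0, at 0.04, 0.04, 0.10 and 0.15.

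Per kilobase of exon, the sterol enzymes covered a wide range of levels within a scar. In NS, Hmgcs1 stood highest at 213 ± 26.5 CPM per kb (SD, n = 3), above Msmo1 at 69.9 ± 7.29 and Cyp51 at 68.2 ± 10.9, which did not differ beyond their spread. Sqle followed at 51.6 ± 6.204. Fdft1, Idi1 and Fdps lay together, at 38.9 ± 4.38, 38.6 ± 3.98 and 37.1 ± 3.10 CPM per kb. Lss, with the largest fall, was low in this order, at 13.9 ± 0.843, and Tm7sf2 was the lowest. The length used joins all annotated exons of a gene, 10787 bases for Lss, so the order depends on it. In CPM, Lss at 150 in NS stood near Fdps at 156 and above Idi1 at 135. In HS the highest was again Hmgcs1, at 155 ± 22.9, followed by Cyp51 at 52.9 ± 8.94 and Msmo1 at 51.9 ± 8.91. Elovl6, a fatty acid elongase, was the lowest of all members, at 0.162 ± 0.0525 CPM per kb in NS.

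**Figure D3:**
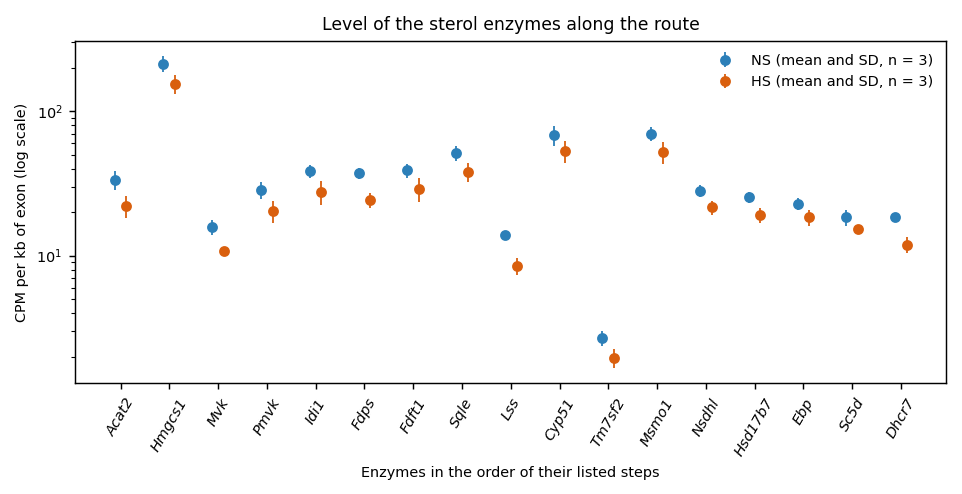
Level of the 17 sterol enzymes along the route, in CPM per kb of exon on a log axis. The length joins all annotated exons of a gene, so the order of the enzymes depends on it. Points are group means and bars the SD (n = 3 each), with NS in blue and HS in orange. HS lies under NS at every enzyme with libraries scaled by TMM, while with scaling to inner root sheath and hair shaft markers Cyp51, Nsdhl, Ebp and Sc5d were fitted above 0; Hmgcs1 is the highest and Tm7sf2 the lowest.

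The HS libraries were ordered alike across the sterol enzymes. HS2 was the highest of the 3 in 16 of the 17 enzymes, while it was the highest in 36.7% of all genes tested. HS1 was the lowest in 14 of the 17, against 36.2% of all genes. Among NS, NS3 was the highest in 14 of the 17, against 33.1% of all genes. Summed over the 17 enzymes, the level was 2129.5, 2726 and 2223 CPM in HS1 to HS3 and 3014, 3079.8 and 3653 CPM in NS1 to NS3. Marker genes of fibroblasts moved the other way over the HS libraries: their summed level was 55217 CPM in HS1, 26320 in HS2 and 43673 in HS3, against 11252 to 14312 in NS. Of these 7 markers, 6 were called higher, as were 6 of 7 endothelium markers, beside 6.33% of all genes tested. Whether this order has a part in the lower sterol enzymes was not tested.

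Of the 6 members that regulate the SREBPs or carry sterol, 4 were called lower, beside 2.51% of all genes tested: Srebf1, Srebf2, Insig1 and Insig2. Srebf1 encodes the SREBP linked mostly to fatty acid synthesis (chr11:60199089-60222581). It was at 58.1, 58.1 and 67.1 CPM in HS1 to HS3 and 81.7, 96.0 and 83.2 CPM in NS1 to NS3, and the fold change was -0.51 (SE 0.10, edgeR adjusted p = 0.0222). HS1 and HS2 were nearly equal, HS3 was higher, and all lay below NS. Its exons share 175 bases with Rai1 and the microRNA gene Mir6922. Srebf2, the SREBP linked mostly to sterol synthesis (chr15:82147181-82205379), was at 84.7, 99.8 and 92.6 CPM in HS1 to HS3 and 119.9, 138 and 120.4 CPM in NS1 to NS3. It had a fold change of -0.45 (SE 0.10, edgeR adjusted p = 0.0262), and NS2 stood above the other two NS libraries.

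Insig1, which retains SCAP and is itself induced by SREBPs (chr5:28071363-28078662), was at 132, 132 and 132 CPM in HS1 to HS3 and 179, 167 and 203 CPM in NS1 to NS3. The HS values were almost identical, with an SD of 0.197 CPM around 131.9, and the NS values spread over 167 to 203 CPM. At 2965 to 3597 counts in the HS libraries, an SD this small is below the noise of counting and says little of constancy. The fold change of Insig1 was -0.47 (SE 0.09, edgeR adjusted p = 0.0193). Insig2, its homolog (chr1:121304353-121332589), was at 135, 144 and 126 CPM in HS1 to HS3 and 175, 164 and 181 CPM in NS1 to NS3. The fold change was -0.36 (SE 0.08, edgeR adjusted p = 0.0333), and it was 0.07 with scaling to inner root sheath and hair shaft markers. Scap, the escort itself, was not called: it was at 86.5, 88.3 and 80.6 CPM in HS1 to HS3 and 107, 116 and 98.3 CPM in NS1 to NS3, with a fold change of -0.33 (SE 0.09, edgeR adjusted p = 0.0516) and no overlap. Stard4, a carrier of sterol between membranes, had -0.35 (edgeR adjusted p = 0.208), and its groups overlapped, as HS2 at 77.4 CPM lay above NS2 at 73.0 CPM. No member of this group was called without HS3 or without any 1 NS library.

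In fatty acid synthesis none of Acly, Acaca and Fasn was called, and in all 3 the groups overlapped, with HS3 the highest HS library. Fasn, fatty acid synthase, was at 442, 470.1 and 774 CPM in HS1 to HS3 and 631, 666 and 736 CPM in NS1 to NS3. HS1 and HS2 lay below every NS library and HS3 above every one, and the fold change was -0.27 (SE 0.21, edgeR adjusted p = 0.454). Without HS3 it was -0.57 (adjusted p = 0.0618), and with scaling to inner root sheath and hair shaft markers it was 0.15. Acaca, acetyl-CoA carboxylase, the step that commits acetyl-CoA to fatty acids, was at 166, 191 and 252 CPM in HS1 to HS3 and 191, 198 and 211 CPM in NS1 to NS3. Its fold change was 0.02 with HS3 and -0.17 without it. Acly, which makes cytosolic acetyl-CoA from citrate, was at 402, 441 and 513 CPM in HS1 to HS3 and 494, 494 and 569 CPM in NS1 to NS3, with a fold change of -0.20 (SE 0.11, edgeR adjusted p = 0.296), or -0.30 without HS3. HS3 was the highest HS library in 5 of the 9 members that act on fatty acids, and in none of the 17 sterol enzymes, against 23.5% of all genes tested.

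Several markers of fat cells were also highest in HS3. Fabp4, the fatty acid binding protein of adipocytes, was at 537, 535 and 985 CPM in HS1 to HS3 and 524, 439 and 493 CPM in NS1 to NS3. Adipoq, adiponectin, was at 93.3, 84.3 and 152 CPM in HS1 to HS3 and 78.8, 80.3 and 89.3 CPM in NS1 to NS3. Thrsp, a lipogenic protein from the list of fatty acid synthesis and not from the marker lists, was at 36.3, 35.9 and 112 CPM in HS1 to HS3. It lies outside the rule that named genes of that list, so its choice was not fixed in advance. In NS1 to NS3 it was at 33.015, 32.3 and 40.0 CPM. In all 3, HS3 lies above the other 5 libraries. Lep, a white adipocyte marker, did not follow: it was at 21.0, 8.91 and 11.1 CPM in HS1 to HS3 and 25.1, 21.0 and 21.7 CPM in NS1 to NS3. The summed level of the 10 white adipocyte markers was 2152 and 1967 CPM in HS1 and HS2, 3506 in HS3 and 2303 to 2364 in NS, none of the 10 was called, and none was at 0. Ucp1, the uncoupling protein that defines brown fat, was at 0.489, 24.5 and 137 CPM in HS1 to HS3 and 0.743, 0.576 and 0.720 CPM in NS1 to NS3; it was high in HS2 and HS3 and under 1 CPM elsewhere. Of the other 5 analysed brown adipocyte markers, Dio2 was also highest in HS3, at 38.0 CPM against 10.98 to 18.8 in the other 5 libraries. The rest did not follow: Cox8b was at 4.37 to 7.84 CPM in HS and 4.36 to 8.79 in NS, Fabp3 was highest in HS1 at 22.9 CPM, Elovl3 was lowest in HS3, and Cpt1b had at most 6 counts in any HS library. Whether fat tissue in HS3 has a part in its Fasn and Acaca levels was not tested.

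**Figure D4:**
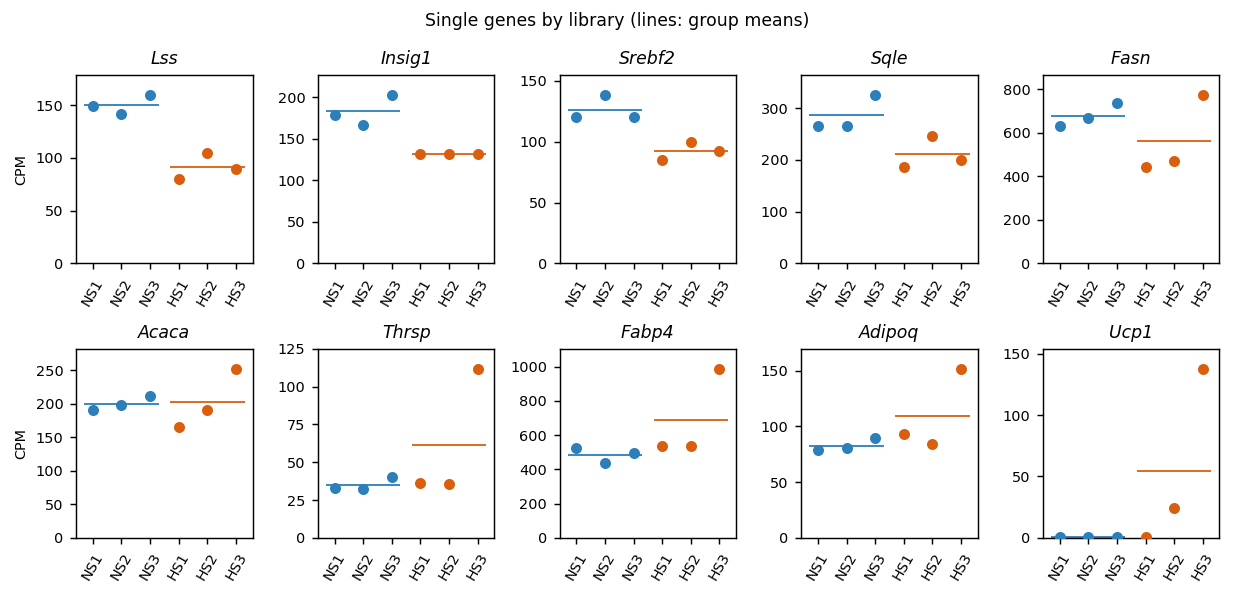
Level in CPM (axis from 0) of single genes in each library, with NS in blue, HS in orange and lines for the group means. The first 6 panels are members, the next is Thrsp of the fatty acid synthesis list, and the last are the fat cell markers Fabp4, Adipoq and Ucp1. In Lss, Insig1, Srebf2 and Sqle the HS points lie under the NS points at this scaling, with Lss, Srebf2, Sqle and Insig1 also fitted below 0 with scaling to inner root sheath and hair shaft markers, while in Fasn, Acaca, Thrsp, Fabp4, Adipoq and Ucp1 HS3 is the highest point.

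Of the 6 members that elongate or desaturate fatty acids, 1 was called lower, beside 2.51% of all genes tested. Fads2, the delta-6 desaturase of polyunsaturated fatty acids (chr19:10062765-10101746), was at 23.2, 28.1 and 27.7 CPM in HS1 to HS3 and 36.5, 38.6 and 36.2 CPM in NS1 to NS3. Its fold change was -0.49 (SE 0.12, edgeR adjusted p = 0.0382), the groups were apart, and the call was lost without HS1, without HS3 and without any 1 NS library. Fads1, the delta-5 desaturase, of the same gene cluster on chromosome 19, had -0.20 (SE 0.11, edgeR adjusted p = 0.277) with overlapping groups. Scd2, a stearoyl-CoA desaturase, was at 543, 729.9 and 719.9 CPM in HS1 to HS3 and 724, 815 and 930.4 CPM in NS1 to NS3. Its fold change was -0.31 (SE 0.14, edgeR adjusted p = 0.1998), and the groups overlapped, with HS2 above NS1. Scd2 resembles Scd1 and its other paralogs, among which reads may be split. Elovl1, an elongase of very long chains, was at 170.2, 165 and 109 CPM in HS1 to HS3 and 180.0, 202 and 203 CPM in NS1 to NS3, with HS3 the lowest and a fold change of -0.40 (SE 0.16, edgeR adjusted p = 0.164). Elovl5, an elongase of polyunsaturated chains, had a fold change near 0 (-0.16, SE 0.08, edgeR adjusted p = 0.247), although its groups did not overlap. Elovl6 was near the limit of detection, with 16 counts in the lowest library, and its fold change of -0.52 had an SE of 0.52. With scaling to inner root sheath and hair shaft markers, Elovl1, Elovl5, Fads1 and Scd2 were fitted above 0.

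Other genes of the same pathways, from lists by role, were read beside the members. Among 10 further regulators of SREBP and of the liver X receptors, none was called, the median was 0.04, and an unadjusted p below 0.05 was reached by 0 of them. These include the proteases that cut SREBP in the Golgi, Mbtps1 at 0.06 and Mbtps2 at 0.08.

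Among genes of sterol uptake, export and esterification, the few that were called went in the other direction. Of 16 tested, 3 were called higher, beside 6.33% of all genes tested, and none was called lower. Every HS library lay above every NS library in 5 of the 16 and below in 3, beside 17.2% and 15.2% of all genes tested. Lipa, the lysosomal acid lipase that frees cholesterol from its esters, had a fold change of 1.58 (SE 0.23, edgeR adjusted p = 0.0142). Npc2, which binds cholesterol in the lysosome, had 0.55 (SE 0.13, edgeR adjusted p = 0.0396). Cyp7b1, an oxysterol hydroxylase, had 1.54 (SE 0.38, edgeR adjusted p = 0.0407). Lipa was at 111, 68.8 and 131 CPM in HS1 to HS3 and 30.041, 37.3 and 36.8 CPM in NS1 to NS3, so the groups did not overlap. In other fatty acid and triglyceride synthesis, 10 of 29 were called, all lower, beside 2.51% of all genes tested called lower. The median over the list was -0.37. Acss2, which makes acetyl-CoA from acetate, was at 54.9, 51.1 and 54.4 CPM in HS1 to HS3 and 80.2, 80.1 and 78.2 CPM in NS1 to NS3 (-0.57, edgeR adjusted p = 0.0104), and Dgat2, which completes triglycerides, was at 139, 143 and 144 CPM in HS1 to HS3 and 193, 200.3 and 208 CPM in NS1 to NS3 (-0.50, edgeR adjusted p = 0.0106). Acacb, Fads3, Tecr, Mid1ip1, Elovl3, Hacd2 (listed as Ptplb), Scd3 and Elovl4 were the other 8, between -0.80 (Scd3) and -0.50 (Fads3). Scd1, the main stearoyl-CoA desaturase of skin, had -0.37 (SE 0.13, edgeR adjusted p = 0.118). Npc2, Cyp7b1 and Elovl4 were chosen after their values were seen. Of these called genes, Acss2 and Lipa were still called without HS3, Acacb and Tecr without NS1, and none without NS2 or without NS3; Npc2 and Cyp7b1 were lost without HS1.

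Some markers of sebaceous glands, hair follicles and the epidermis also fell in HS, where 2.51% of all genes tested were called lower. Of 15 sebocyte markers, 5 were called lower and none higher (median -0.63), and their summed level was 1830 to 2021 CPM in HS and 2429 to 3041 CPM in NS. Elovl3 and Scd3 are on this list and on that of fatty acid synthesis, and Soat1 on that of sterol esterification. Of 11 inner root sheath and hair shaft markers, 4 were called lower (median -0.50), with a sum of 16085 to 19831 CPM in HS and 22715 to 26643 in NS. Of 9 suprabasal keratinocyte markers, 2 were called lower, with 12768 to 21624 CPM against 19724 to 28021. Of 7 basal keratinocyte markers, 1 was called lower, with 4976 to 6334 CPM against 6078 to 7016. No marker on these 4 lists was at 0 in any library, including Krt5 and Krt14, the keratins that define keratinocytes and match the tissue label, skin. In such bulk samples, fewer cells of a type and less RNA per cell cannot be told apart.

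How the sterol enzymes stood against these markers depended on the list. Their summed level was 36.6% to 43.04% of the basal keratinocyte sum in HS and 44.95% to 52.07% in NS, with no overlap. That separation came with Krt14, which was at 1508, 2314 and 2727 CPM in HS1 to HS3 and 1602, 1969.9 and 2053 CPM in NS1 to NS3 and was higher in HS2 and HS3 than in all 3 NS libraries. Without Krt14 the shares were 61.4% to 67.8% in HS and 63.1% to 73.6% in NS, and overlapped. Against the suprabasal keratinocyte sum they were 16.46%, 12.61% and 17.41% in HS1 to HS3 and 15.28%, 12.92% and 13.04% in NS1 to NS3, so that HS1 and HS3 lay above all NS libraries and HS2 below them. Against the sebocyte sum it was 113% to 135% in HS and 119% to 124% in NS, and against the inner root sheath and hair shaft sum it was 12.3% to 13.8% in HS and 11.3% to 16.1% in NS, both with overlap. When the libraries were scaled to the basal keratinocyte markers, Lss alone of the members was called lower, with or without Krt14 among them. When they were scaled to the inner root sheath and hair shaft markers none was (smallest adjusted p 0.0524, 1 member with an unadjusted p below 0.05). The median of the members was then -0.22 with the basal keratinocyte markers, -0.03 with these but without Krt14, and -0.01 with the inner root sheath and hair shaft markers. A scaling adds nearly the same amount to every gene, so the distance of the members from the median of all genes is fixed by construction and says nothing of cell shares. The part of the sebaceous, hair and epidermal share of the tissue in the members' levels was not tested.

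**Figure D5:**
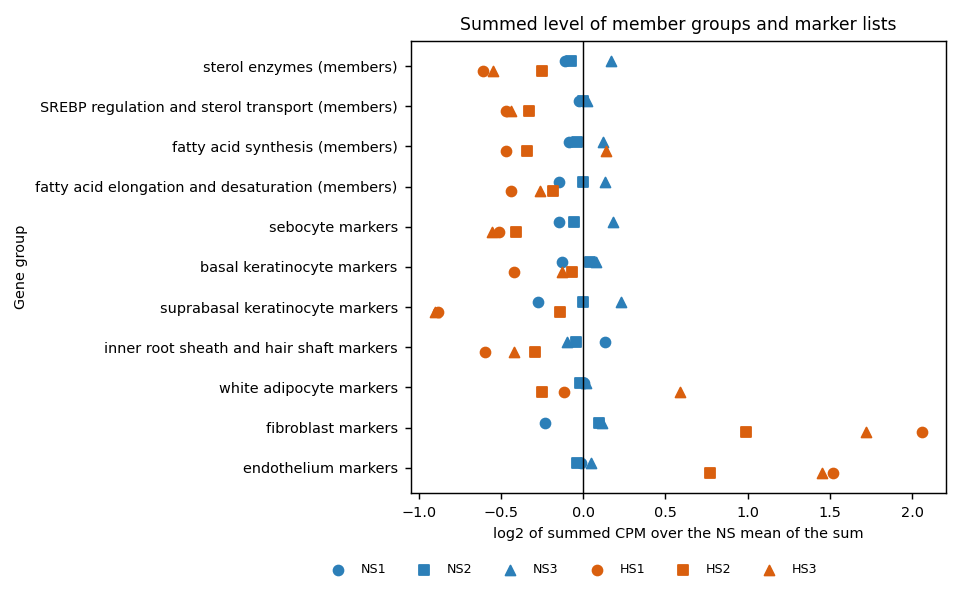
Summed level of member groups (top 4 rows) and marker lists in each library, as log2 of the summed CPM over the NS mean of the sum; blue symbols are NS, orange symbols HS, and circle, square and triangle are replicates 1, 2 and 3. The sterol enzymes, the SREBP regulators, the elongation and desaturation members, the sebocyte markers and the inner root sheath and hair shaft markers have all HS symbols left of all NS symbols under this scaling (the members' median was near 0, at -0.01, with scaling to the last of these lists), and the fibroblast and endothelium markers have them to the right.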

How the data were processed

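RNA sequencing of 3 HS and 3 NS scars gave 6 libraries, read as 150 bp paired ends, per the labels' protocols. The authors' deposited table holds raw counts per gene, not normalized, per the file headers; its 6 columns of normalized values were not used. The submitters' processing notes name the build mm10 and the tools edgeR, HTSeq 0.9.1, HISAT2 2.0.4 and cutadapt 1.9.3, and the strand and settings used are not given in the sources. Exons of 12 of the 32 members share bases with another annotated gene, so their counts can include its reads.

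Groups came from the sample titles and treatment labels. Low counts were filtered with filterByExpr by group at a minimum of 10, which removed 3059 genes, and libraries were scaled by TMM. A robust quasi-likelihood model in edgeR 4.0.16 (R 4.3.3) gave fold changes and p-values, adjusted by Benjamini-Hochberg over 14513 genes at 0.05. CPM values use TMM-scaled totals. The procedure was run on simulated data, in which every planted change was larger than those of most called members, so it does not cover changes of their size. Alternatives were DESeq2 1.42.0, limma-voom (limma 3.58.1), other size factors and filters, no robust step, a replicate block and each library left out. Scaling to basal keratinocyte markers (with and without Krt14) and to inner root sheath and hair shaft markers was chosen after seeing the data. Coordinates (1-based) and exon lengths are from GENCODE for that build; 17398 of the 17572 gene identifiers were found there.

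Every member may be named. Of the 4 further pathway lists, the rule named the 12 called genes with the smallest p, and Scd1 whatever its result; some genes are not reported here. The members, lists and markers were chosen with earlier results of these data known.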

Additional observations from a re-analysis of the deposited data

How the results depend on the processing

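With 3 libraries a group, the calls of single members depended on the libraries used, while the median of the members kept its direction in all 14 alternatives listed in the methods. Leaving out each library in turn gave 25 to 3257 genes called, 0 to 22 members lower, 0 higher, and a member median of -0.511 to -0.358. DESeq2 called 2435 genes and 18 members lower, and limma-voom 945 genes and 9 members (Acat2 and Hsd17b7 lost, with Npc2 and Cyp7b1 among the other genes). The deviations of same-numbered libraries were correlated at 0.005, 0.005 and 0.033, and those of the other pairs at -0.042 to 0.022. With 3 libraries a group these values cannot decide whether same-numbered libraries share an animal, which the labels do not state. With a replicate block 1001 genes and 8 members were called (Hsd17b7, Insig2 and Fads2 lost), with a median of -0.437. Cyp7b1 and Elovl4 were not called with the block either. With scaling to basal keratinocyte markers, 1050 genes and 1 member were called and the median was -0.224, or 5373, 1 and -0.029 without Krt14 among the markers; with scaling to inner root sheath and hair shaft markers, 5406 genes and 0 members were called and the median was -0.008. The log2 fold change of Acaca, 0.02, turned to -0.036 with library totals only, -0.001 with the block, -0.001 with limma-voom, -0.165 without HS3 and -0.023 without NS1, and rose to 0.146 without HS1; the cause was not tested. With scaling to basal keratinocyte markers, Acly turned to 0.002, Elovl5 to 0.048 and Fads1 to 0.006. With these markers but without Krt14, Cyp51 turned to 0.035, Nsdhl to 0.027, Ebp to 0.092, Sc5d to 0.133, Scap to 0.07, Insig2 to 0.043, Stard4 to 0.041, Acly to 0.215, Fasn to 0.16, Elovl1 to 0.001, Elovl5 to 0.247, Fads1 to 0.218, Scd2 to 0.1 and Scd1 to 0.051. With scaling to inner root sheath and hair shaft markers, Cyp51 turned to 0.043, Nsdhl to 0.043, Ebp to 0.104, Sc5d to 0.145, Scap to 0.103, Insig2 to 0.074, Stard4 to 0.065, Acly to 0.226, Fasn to 0.154, Elovl1 to 0.036, Elovl5 to 0.267, Fads1 to 0.228, Scd2 to 0.102 and Scd1 to 0.064. Depth was lowest for Elovl6, with 16 counts in 1 library.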
